A study of Mus musculus with 4 samples.

Results

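The genes described here encode structural parts of cartilage matrix: the collagen chains Col2a1, Col9a1, Col11a1 and Col11a2, the proteoglycan core protein Acan (aggrecan) and the adaptor protein Matn3 (matrilin 3). They are 6 of the 235 named genes in the authors' 6 deposited tables of called differences, and 8 of the 382 transcripts, since Col9a1 and Col11a2 each appear as 2 assembled transcripts. The members were chosen because their listed values differed between libraries, so those values are given as a description, without a test. The tissue was fetal testis of the CD1 mouse strain (wild type, E13.5), freed of the mesonephros and frozen, and each of the 4 groups was 1 library. The groups were IBU+ACE (labelled ibuprofen and acetaminophen), ASP+ACE (aspirin and acetaminophen), ACE+ACE (acetaminophen) and Control (treatment labelled as none, with the name EtOH inside the tables). The labels state no dose, no exposure days and no number of embryos, and with 1 library a group no difference has a replicate check.

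Levels are FPKM, that is, sequenced fragments divided by transcript length and by the library's mapped fragments, as the authors' tables are read here. The tables hold called transcripts alone, so a gene missing from a table received no call there, which does not show equal levels. Every listed row carries the same q-value, so calls cannot be graded by it, and each call sets 1 library against 1. The words rose and fell are kept for genes that a table lists. The number of reads behind each value is unknown, so no interval or detection limit can be given. IBU+ACE stood apart from the other libraries over the whole series, with 174 to 232 transcripts listed in each of its 3 tables against 24 to 67 in the tables without it. Genes of the fetal testis were present. Sox9, which drives Sertoli cell fate but also acts in the developing skeleton, had 5.22 to 10.04 FPKM over the 4 libraries. Lefty1, a Nodal inhibitor of fetal germ cells, had 4.53 to 11.04 FPKM over the same libraries.

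Cartilage is built on thin fibrils whose main component is type II collagen, a homotrimer of the Col2a1 chain. Type XI collagen, made from the Col11a1 and Col11a2 chains together with a product of Col2a1, lies in the core of those fibrils and limits their width, while type IX collagen, with Col9a1 as one of its chains, sits on their surface. Aggrecan carries the charged sugar chains that hold water between the fibrils, and matrilins link fibrils to proteoglycans. In the developing skeleton the transcription factor Sox9 activates most of these genes; the same factor is central to testis determination, but the fetal testis forms no cartilage.

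What the 4 collagen members share, and Acan and Matn3 lack, is the repeat that lets 3 chains wind into a triple helix, a string of triplets whose first residue is glycine. Glycine codons are the ones that start with GG. In the longest annotated coding region of each gene (GENCODE M21, on GRCm38), the longest unbroken run of such triplets was 339 repeats in Col2a1, 338 in Col11a1, 338 in Col11a2 and 113 in Col9a1, against 3 in Acan and 2 in Matn3. The run took 68.4% of the coding region of Col2a1, 56.2% of that of Col11a1, 58.4% of that of Col11a2 and 36.8% of that of Col9a1. The first 6 repeats of each run are shown because they make the family likeness and the differences visible; capitals mark the glycine codons, and each sequence is 54 bases of the GENCODE transcript, read along the coding strand.
Col2a1: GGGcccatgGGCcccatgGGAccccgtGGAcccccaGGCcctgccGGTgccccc
Col9a1: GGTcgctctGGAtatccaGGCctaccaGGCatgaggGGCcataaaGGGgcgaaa
Col11a1: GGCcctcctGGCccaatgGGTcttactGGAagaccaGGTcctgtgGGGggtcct
Col11a2: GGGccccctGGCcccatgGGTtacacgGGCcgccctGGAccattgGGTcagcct
The runs of Col11a1 and Col11a2, which have the same length of 3042 bases, were identical at 70.1% of positions. Among the 15 pairs of members, the longest identical stretch between their coding regions was 22 bases, between Col2a1 and Col11a1, shorter than the 75 nt reads that the labels give.

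**Figure D1:**
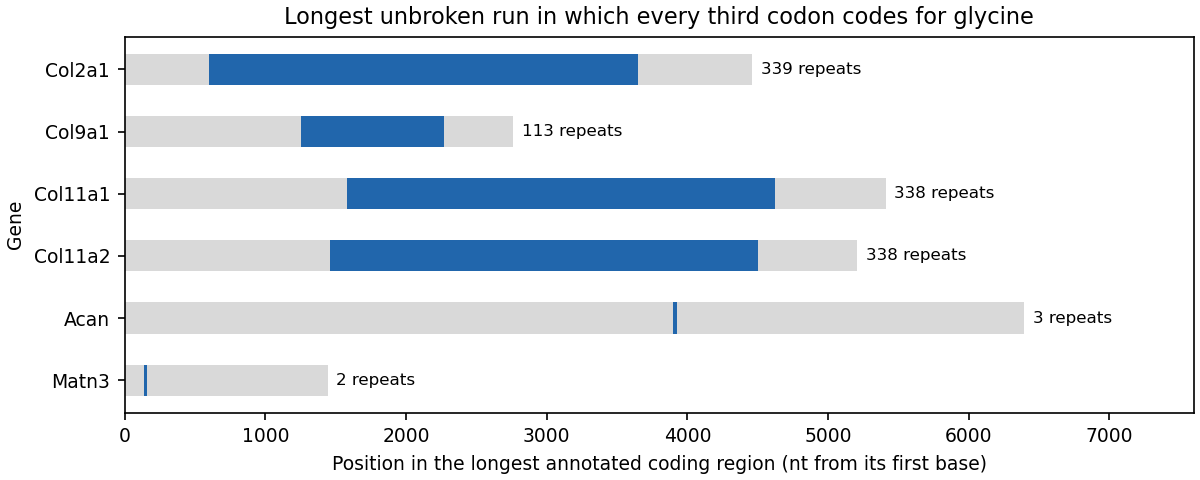
Position, in nucleotides from the first coding base, of the longest unbroken run of codon triplets that start with glycine (blue) in the longest annotated coding region (grey) of each gene. The run spans 338 or 339 repeats in the 3 fibril-forming collagen genes and 113 in Col9a1, against 3 in Acan and 2 in Matn3.

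The comparison of IBU+ACE with Control asks what ibuprofen with acetaminophen changed against no drug. All 6 genes rose in IBU+ACE, by a median log2 fold change of 2.33 over their 6 listed transcripts and a range of 1.01 to 3.64. Among the 185 listed transcripts, 81.6% were higher in IBU+ACE, with a median log2 fold change of 1.57 over all rows; since the members were picked from this contrast, nothing is read from their count. In bulk tissue, more cells of a type and more RNA per cell cannot be told apart. The same genes stood higher in IBU+ACE than in the other exposed libraries: 5 of the 6 rose against ASP+ACE, where 92.0% of the 174 listed transcripts were higher, and 5 of the 6 rose against ACE+ACE, where 89.2% of 232 were higher. The median log2 fold change over the 6 listed member transcripts was 2.96 against ASP+ACE, beside 1.80 over all rows, and 2.48 against ACE+ACE, beside 1.82 over all rows. Acan was the member listed in neither. These 3 tables share the IBU+ACE library, so they are not separate evidence.

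**Figure D2:**
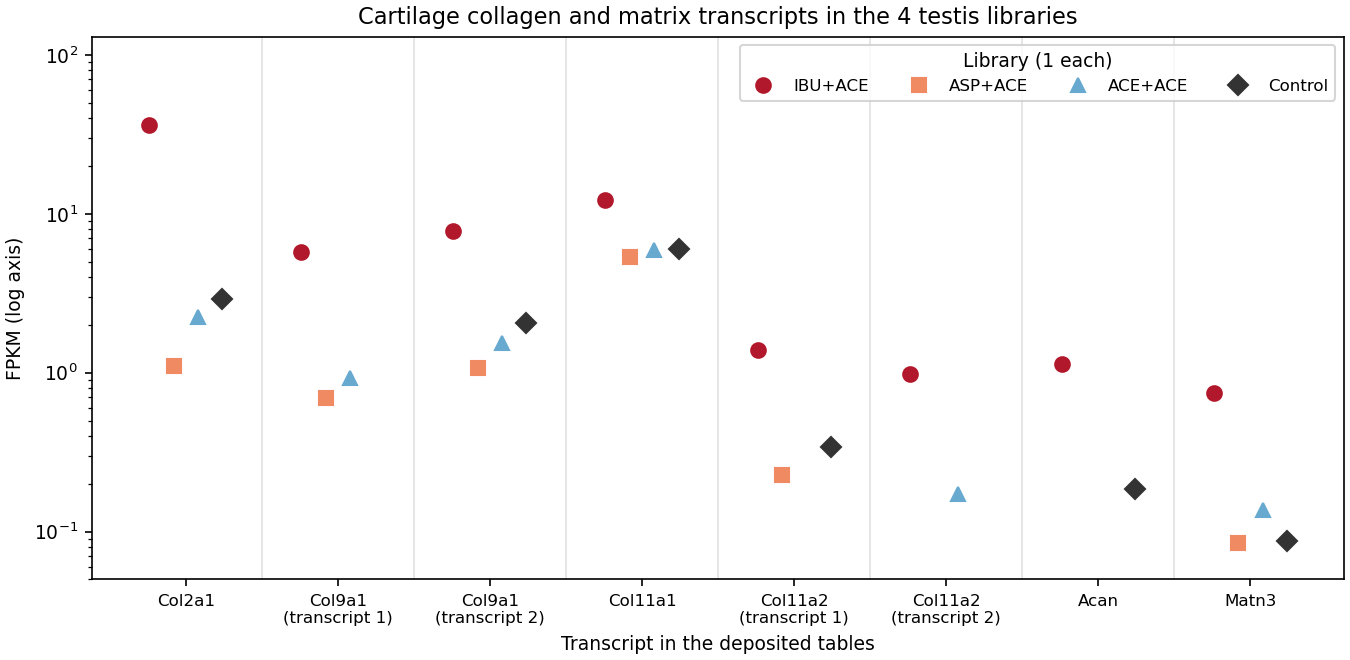
FPKM on a log axis of the 8 transcripts of the 6 genes in the 4 libraries, 1 point for each library; a missing point means that no table lists a value. In every transcript the IBU+ACE point is the highest, and for Col2a1 it stands at 36.3 FPKM against 1.10 to 2.92 FPKM in the others.

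Col2a1 (chromosome 15, 97975602 to 98004703, minus strand; GRCm38), the main fibril collagen of cartilage, differed most. It had 36.3 FPKM in IBU+ACE, 1.10 FPKM in ASP+ACE, 2.25 FPKM in ACE+ACE and 2.92 FPKM in Control. IBU+ACE was thus 33.0-fold above ASP+ACE, 16.1-fold above ACE+ACE and 12.4-fold above Control. By log2 fold change it ranked 19 of 174, 37 of 232 and 36 of 185 in those tables, counting from the highest, with transcripts at 0 in the other library placed first. Col2a1 was the 1 member listed between libraries without ibuprofen: it fell in ASP+ACE against Control, by 1.41 on the log2 scale, which is 2.65-fold lower. With 1 FPKM added to both values the fall was 0.90 on the log2 scale, under a size of 1. Among the 44 transcripts listed there, 65.9% were lower, and the other 5 members were not listed.

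The type XI chains were the least and a middling mover. Col11a1 (chromosome 3, 114028487 to 114220718) already had the highest value given for any of the 6 genes in Control. In ASP+ACE and ACE+ACE it was the highest of the members with a value there, which leaves out Acan. Its level was 12.1 FPKM in IBU+ACE, 5.31 FPKM in ASP+ACE, 5.88 FPKM in ACE+ACE and 6.04 FPKM in Control, so that it rose 2.01-fold against Control, a log2 fold change of 1.01. None of the tables between the other libraries lists it. Its partner Col11a2 (chromosome 17, 34038608 to 34066814) was listed through different assembled transcripts. The first had 1.40 FPKM in IBU+ACE, 0.226 FPKM in ASP+ACE and 0.340 FPKM in Control, a 4.11-fold rise against Control. The second, listed only against ACE+ACE, had 0.980 FPKM in IBU+ACE and 0.172 FPKM in ACE+ACE, a 5.72-fold rise. Col11a2 has 7 annotated coding transcripts, so the split of fragments between its assembled transcripts is uncertain.

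The unequal changes turned the order of the genes round. Col2a1 had 2.99 times the FPKM of Col11a1 in IBU+ACE, but 0.207 times in ASP+ACE, 0.384 times in ACE+ACE and 0.483 times in Control. Of the summed FPKM of the 4 transcripts with a value in every library (Col2a1, the second Col9a1 transcript, Col11a1 and Matn3), Col2a1 made up 63.7% in IBU+ACE against 14.5% in ASP+ACE, 23.0% in ACE+ACE and 26.3% in Control. That sum was 57.0 FPKM in IBU+ACE, 7.57 FPKM in ASP+ACE, 9.81 FPKM in ACE+ACE and 11.1 FPKM in Control. Below these genes the order of levels was the same in IBU+ACE and Control: Col9a1, Col11a2, Acan and last Matn3, taking the transcripts that have both values. The orders are thus of single transcripts and not of whole genes. The first Col9a1 and second Col11a2 transcripts are left out, as neither has a value for Control. With no replicates, it cannot be said which neighbours in these orders differ beyond their spread.

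Col9a1 (chromosome 1, 24164442 to 24252684) was represented by a pair of assembled transcripts, both higher in IBU+ACE. The first had 5.73 FPKM in IBU+ACE, 0.691 FPKM in ASP+ACE and 0.932 FPKM in ACE+ACE, with no value for Control in any table. The second had 7.83 FPKM in IBU+ACE, 1.07 FPKM in ASP+ACE, 1.54 FPKM in ACE+ACE and 2.05 FPKM in Control, a 3.83-fold rise against Control. Both moved alike: the second transcript was 1.37 times the first in IBU+ACE, 1.55 times in ASP+ACE and 1.65 times in ACE+ACE. As both lie at the same locus, the split of fragments between them is uncertain, and their likeness is not separate evidence. The gene is known to be read from an upstream start in cartilage and from a downstream start, giving a shorter protein, in tissues such as the cornea. The annotated coding regions of 2763 and 2040 bases hold the same 113-repeat run. The tables do not say which start either assembled transcript uses, and give both the same locus, which begins 13168 bases before the annotated gene.

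The windows around both Col9a1 starts are shown because this is the member with more than one listed transcript and more than one annotated promoter. They run from 250 bases before the start to 50 after it (RefSeq, GRCm38.p6, plus strand), and the start sites are 17593 bases apart. Capitals mark a SOX-type word: ACAAAG, or its 3 variants that carry T in place of A as the first base, the fifth base or both, on either strand.
Col9a1 upstream start, chr1:24177360-24177659: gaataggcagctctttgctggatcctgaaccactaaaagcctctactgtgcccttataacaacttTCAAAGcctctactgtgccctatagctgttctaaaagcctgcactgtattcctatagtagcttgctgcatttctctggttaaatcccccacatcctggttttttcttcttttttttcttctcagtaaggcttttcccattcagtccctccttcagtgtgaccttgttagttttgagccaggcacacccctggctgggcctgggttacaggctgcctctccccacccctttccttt
Col9a1 downstream start, chr1:24194953-24195252: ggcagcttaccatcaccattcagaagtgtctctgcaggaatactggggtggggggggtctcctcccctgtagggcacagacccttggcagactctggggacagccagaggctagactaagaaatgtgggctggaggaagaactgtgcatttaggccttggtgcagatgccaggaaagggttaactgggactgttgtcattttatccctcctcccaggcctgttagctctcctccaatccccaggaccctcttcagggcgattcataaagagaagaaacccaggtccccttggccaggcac
The upstream window holds 1 such word, TCAAAG, beginning 185 bases before the start, and the downstream window holds 0. RefSeq windows were found for 5 of the 6 genes, and of their 6 windows 1 held a SOX-type word, against 44.0% of all 32851 promoter windows of that length. The word TATAAA, on either strand, occurred in 1 of the 6 windows, that of Col11a2, beginning 143 bases before the start, against 13.6% of all windows. A match or its absence in these letters says nothing about binding.

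Acan (chromosome 7, 79018053 to 79115099) had 1.13 FPKM in IBU+ACE and 0.185 FPKM in Control, a 6.11-fold rise; no table gives its value in ASP+ACE or ACE+ACE. Its deposited locus begins 35430 bases before the annotated gene and takes in the antisense gene Gm26633, so part of its value may belong to that gene: the libraries were stranded, but the sources used here do not say how reads were counted. Matn3 (chromosome 12, 8947929 to 8972028), whose locus equals the annotated gene, had the lowest of the member levels given in each library. It had 0.743 FPKM in IBU+ACE, 0.0850 FPKM in ASP+ACE, 0.137 FPKM in ACE+ACE and 0.0873 FPKM in Control, an 8.51-fold rise against Control. At such levels few fragments may lie behind a value: once 1 FPKM was added to both values, an alternative chosen after the data had been seen, 2 of the 6 genes, Col2a1 and Col9a1, kept a log2 fold change of at least 1 against Control, as did 24.9% of all transcripts in that table.

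**Figure D3:**
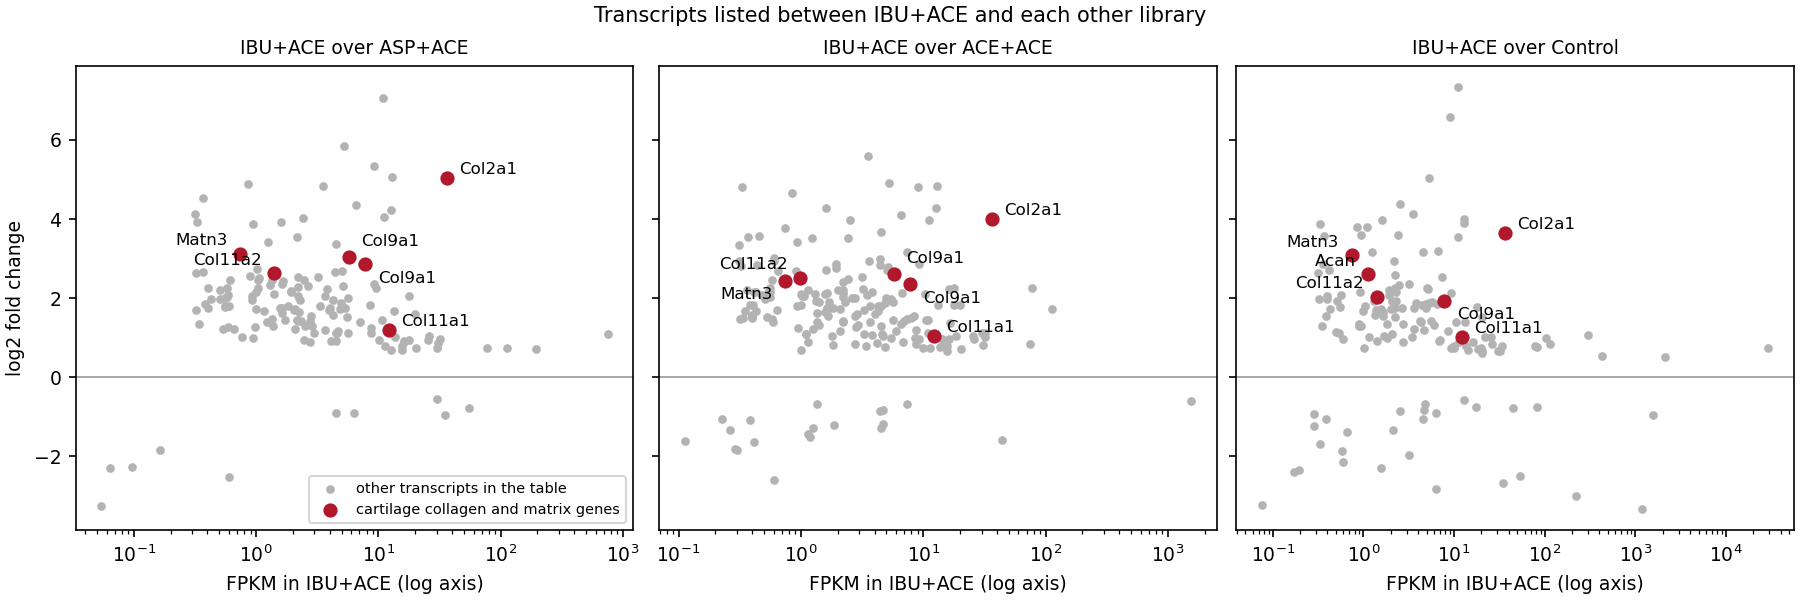
Log2 fold change of IBU+ACE over each other library against FPKM in IBU+ACE (log axis), 1 point for each listed transcript with values above 0 in both libraries; the 6 genes are red and named. Col2a1 combines a high level with a high fold change in all 3 tables, at log2 5.04 over ASP+ACE, 4.01 over ACE+ACE and 3.64 over Control, while Col11a1 lies between 1.01 and 1.19.

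Among the libraries without ibuprofen, the fall of Col2a1 in ASP+ACE against Control was the 1 listed difference of a member. None of the 6 was listed in ACE+ACE against Control, where 25.4% of the 67 transcripts were higher and 74.6% lower, or in ASP+ACE against ACE+ACE, where 58.3% of the 24 were higher and 41.7% lower. The values can still be set side by side, as ratios without a call that share their libraries. In ACE+ACE over Control the log2 ratio was -0.37 for Col2a1, -0.41 for the second Col9a1 transcript, -0.04 for Col11a1 and 0.64 for Matn3. In ASP+ACE over Control it was -1.41 for Col2a1, which is the listed fall, -0.93 for the second Col9a1 transcript, -0.59 for the first Col11a2 transcript, -0.19 for Col11a1 and -0.04 for Matn3. In ASP+ACE over ACE+ACE it was -1.03 for Col2a1, -0.43 and -0.52 for the first and second Col9a1 transcripts, -0.15 for Col11a1 and -0.68 for Matn3. ASP+ACE thus held the lowest value of each member transcript that has values in all 4 libraries, and Col2a1, the second Col9a1 transcript and Col11a1 were ordered ASP+ACE, ACE+ACE, Control from low to high.

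**Figure D4:**
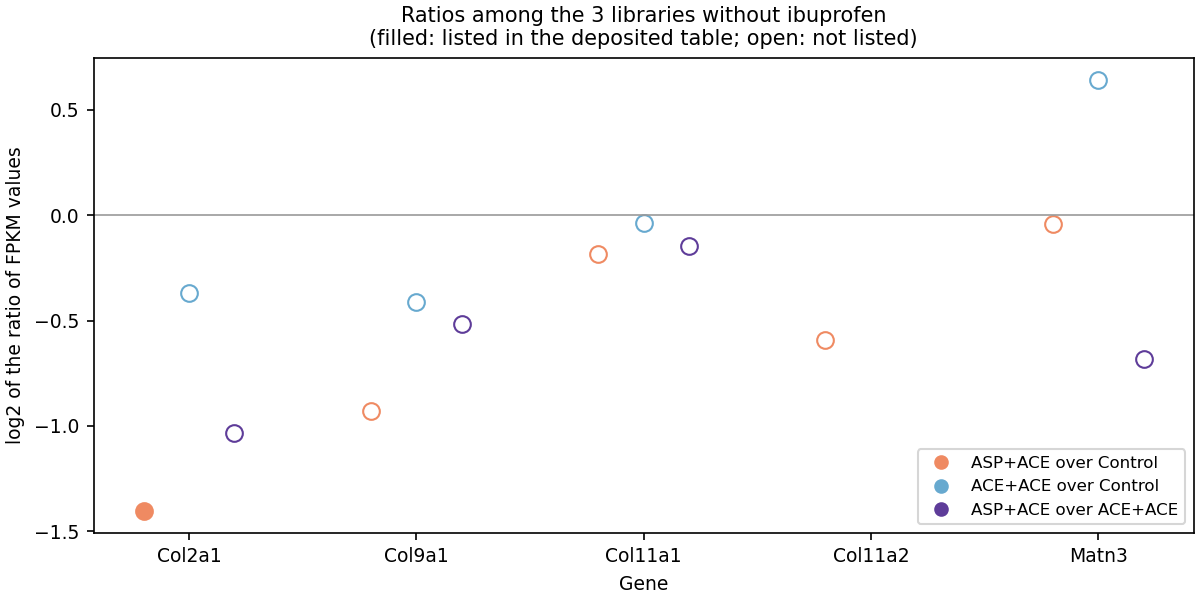
Log2 ratios of FPKM among the libraries without ibuprofen for 5 of the genes, using the second transcript of Col9a1 and the first of Col11a2; filled points are listed in a deposited table and open points are not. The 1 filled point is Col2a1 in ASP+ACE over Control, at -1.41.

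A minority of the cartilage regulator genes was listed. Of 26 annotated cartilage regulators, 4 were listed in IBU+ACE against Control, 7 against ASP+ACE and 5 against ACE+ACE. Each listed one was higher in IBU+ACE, and 0 fell. Among all listed rows, 81.6% were higher against Control, 92.0% against ASP+ACE and 89.2% against ACE+ACE. These shares cover listed rows alone, so they bear on direction and not on how many of the 26 were listed. The other 19 were in none of the 6 tables. Gdf5, a joint and cartilage growth factor, had 5.25 FPKM in IBU+ACE, 0.0916 FPKM in ASP+ACE, 0.174 FPKM in ACE+ACE and 0.159 FPKM in Control; its locus covers a second annotated gene. Nog, which binds and blocks BMPs, had 2.29 FPKM in IBU+ACE, 0.598 FPKM in ASP+ACE, 0.619 FPKM in ACE+ACE and 0.519 FPKM in Control. The BMP receptor gene Bmpr1b had 1.58 FPKM in IBU+ACE and 0.470 to 0.506 FPKM in the others. Sox9, the activator of the collagen genes named above and a Sertoli gene as well, moved far less than Col2a1. It had 10.04 FPKM in IBU+ACE, 5.22 FPKM in ASP+ACE, 5.97 FPKM in ACE+ACE and 5.98 FPKM in Control, a log2 fold change of 0.75 against Control where Col2a1 had 3.64. Ihh, the signal of maturing chondrocytes, had 0.924 FPKM in IBU+ACE, 0.238 FPKM in ASP+ACE and 0.266 FPKM in ACE+ACE, and was not listed against Control. Foxc1 and Barx2 rose against ASP+ACE alone among the 3 tables, Foxc1 with 4.60 FPKM in IBU+ACE and 2.14 FPKM in ASP+ACE, and Barx2, at a locus over 2 annotated genes, with 1.003 FPKM in IBU+ACE and 0.227 FPKM in ASP+ACE.

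Other matrix genes were mostly not listed. None of 19 further cartilage matrix genes, among them Col9a2 and Col9a3, the partner chains of Col9a1, Hapln1, the link protein that ties aggrecan to hyaluronan, and Col10a1, the collagen of hypertrophic cartilage, was in any of the 6 tables, nor was any of the 8 other fibril-forming collagens such as Col1a1. A missing row gives no level, so these genes cannot be said to have stayed the same. Of 28 remaining collagen genes 2 were listed. Col12a1, a fibril-associated collagen of tendon and other dense tissue, had 9.31 FPKM in IBU+ACE, 4.74 FPKM in ACE+ACE and 5.61 FPKM in Control, and rose against both. Col8a1, a short-chain collagen, had 1.42 FPKM in IBU+ACE and 0.572 FPKM in ACE+ACE. Vcan (versican), a relative of aggrecan found in many soft tissues and the 1 listed of 6 other matrilins and lecticans, had 34.0 FPKM in IBU+ACE and 19.7 FPKM in Control, at a locus over 7 annotated genes. Of 32 genes that process collagen or build proteoglycans 1 was listed: Papss2, which makes the sulfate donor for cartilage proteoglycans, had 5.67 FPKM in IBU+ACE, 1.40 FPKM in ASP+ACE and 1.53 FPKM in ACE+ACE.

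Some markers of other tissues were listed in the same tables as the members, in which most rows of any kind were higher in IBU+ACE. Of 18 limb mesenchyme genes, 5 rose against Control, 6 against ASP+ACE and 3 against ACE+ACE; the 3 with values in every library (Twist1, Msx1 and Hoxa13) summed to 39.8 FPKM in IBU+ACE, 5.20 FPKM in ASP+ACE, 4.73 FPKM in ACE+ACE and 6.08 FPKM in Control. Hoxd13, a gene of the outer limb and the genital bud, had 10.95 FPKM in IBU+ACE, 0.0821 FPKM in ASP+ACE and 0.0680 FPKM in Control. Evx2, a neighbour of the Hoxd cluster, was listed at 0 in ASP+ACE and at 1.82 FPKM in IBU+ACE. Of 11 skin genes, 4 rose against Control, 5 against ASP+ACE and 6 against ACE+ACE, and the 4 with values in every library (Krt5, Krt14, Krt15 and Perp) summed to 19.0 FPKM in IBU+ACE, 3.69 FPKM in ASP+ACE, 3.43 FPKM in ACE+ACE and 4.65 FPKM in Control. Mkx, a tendon transcription factor gene and the 1 listed of 5 tendon markers, had 2.95 FPKM in IBU+ACE, 1.36 FPKM in ASP+ACE and 1.18 FPKM in ACE+ACE. Of 15 skeletal muscle markers, 0 were listed in IBU+ACE against Control, 3 rose against ASP+ACE and 2 against ACE+ACE. Against Control, 1 of the 15 was listed in ASP+ACE and 2 in ACE+ACE, each as lower. Among all listed rows, 65.9% were lower in ASP+ACE and 74.6% in ACE+ACE. Myh3, an embryonic myosin, had 4.54 FPKM in IBU+ACE, 2.41 FPKM in ASP+ACE, 1.85 FPKM in ACE+ACE and 4.46 FPKM in Control. The loci of Col12a1, Mkx, Krt5 and Myh3 each cover 2 annotated genes. No table listed any of the 9 bone, 5 notochord or 6 mesonephros markers. Of 10 markers of the fetal liver, 0 were listed in IBU+ACE against Control, 3 rose against ASP+ACE and 7 rose against ACE+ACE. The median log2 fold change of those 7 was 2.03, beside 2.48 for the members. The same 7 fell in ACE+ACE against Control, with a median of -1.78, where no member was listed and 74.6% of all listed rows were lower. In ASP+ACE against Control 2 of the liver markers were listed, both as lower, where 65.9% of all listed rows were lower. The 5 liver markers with values in every library, Afp and Alb among them, summed to 220 FPKM in IBU+ACE, 131 FPKM in ASP+ACE, 58.3 FPKM in ACE+ACE and 209 FPKM in Control. Of 6 red cell markers, 0 rose and 2 fell in IBU+ACE against Control, where 34 of the 185 listed rows were lower. The embryonic globin gene Hbb-y had 1557 FPKM in IBU+ACE and 3012 FPKM in Control. Against ACE+ACE, where 25 of the 232 listed rows were lower, 2 red cell markers rose and 1 fell, and against ASP+ACE 0 were listed. Among the testis' own cells, 2 of 15 Sertoli markers rose in IBU+ACE against Control, Sox9 and Cst9, and 1 of 11 Leydig and interstitial markers rose, Lum, itself a collagen-binding proteoglycan, with 18.6 FPKM in IBU+ACE and 11.3 FPKM in Control. Of 10 germ cell markers 2 fell in IBU+ACE against Control, where 34 of the 185 listed rows were lower. These were Lefty1 and a transcript named Sox2 whose locus covers 15 annotated genes. Lefty1 also fell against ASP+ACE, where 14 of the 174 listed rows were lower, with a log2 fold change of -0.89. Against ACE+ACE, where 25 of the 232 listed rows were lower, its log2 fold change was -1.29. None of 6 endothelial markers was in any table. The part of other tissues in the members' values was not tested.

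**Figure D5:**
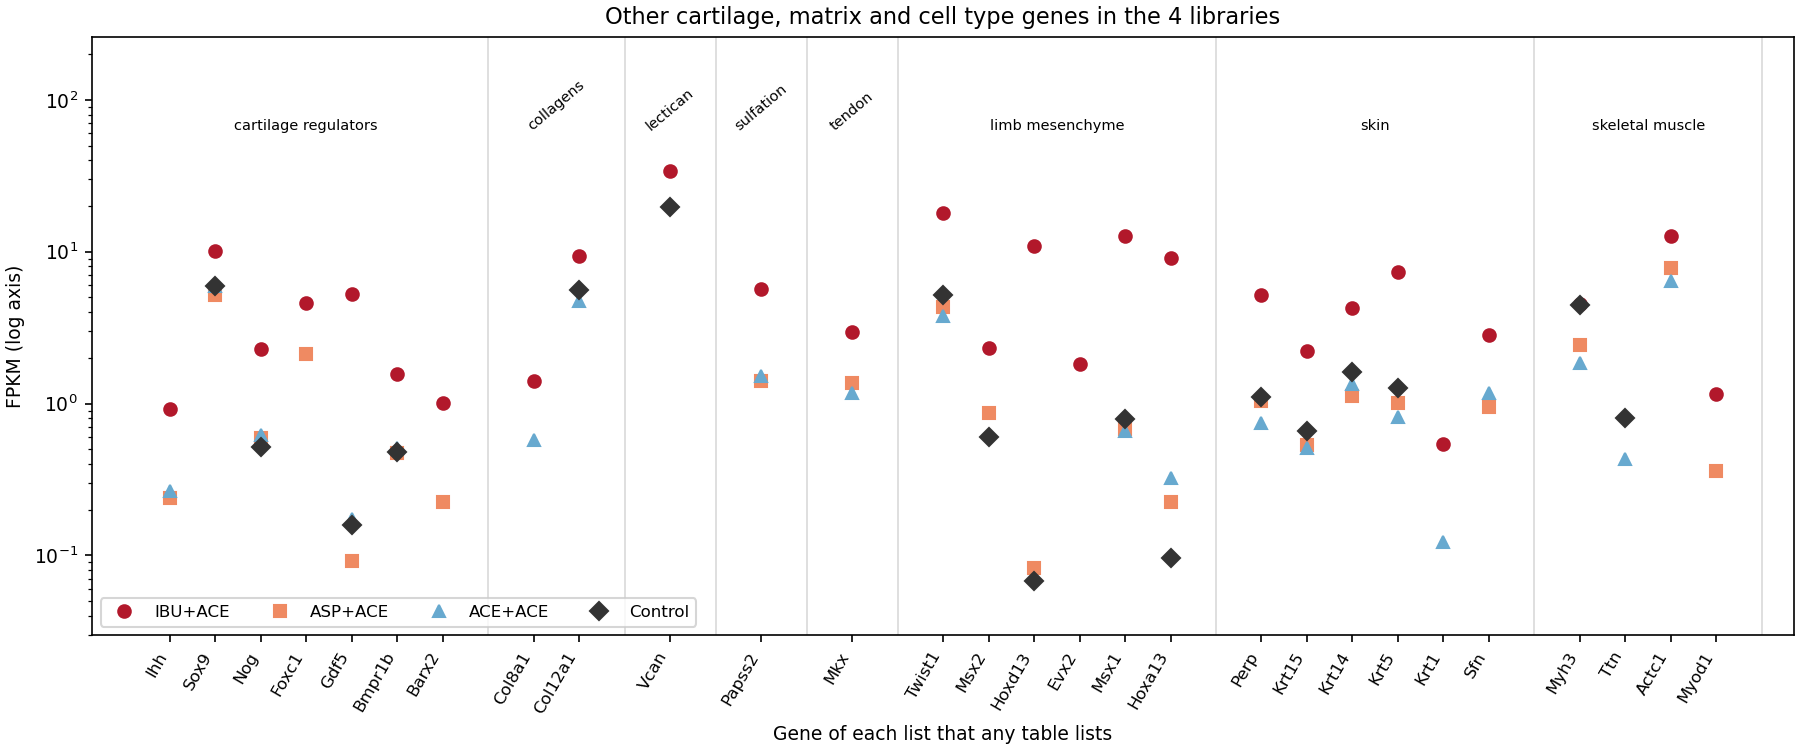
FPKM on a log axis, in the 4 libraries, of each gene of 8 lists that any table lists; missing points have no listed value, and the value of 0 for Evx2 in ASP+ACE is not drawn. IBU+ACE is the highest point for each cartilage regulator, limb and skin gene, while Myh3 has nearly the same level in IBU+ACE (4.54 FPKM) and Control (4.46 FPKM).

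The transcripts whose pattern came nearest to the mean profile of the members were sought among 89 other named transcripts with values in all 4 libraries. The measure was the distance between profiles of log2(FPKM + 0.1), each centred on its own mean, and the mean profile of Col2a1, Col9a1, Col11a1 and Matn3. Among these members Col9a1 lay 0.24 from the mean profile, Matn3 0.52, Col11a1 1.19 and Col2a1 1.61. The nearest other gene was Dkk2, a Wnt antagonist, at 0.36, with 5.02 FPKM in IBU+ACE, 0.775 FPKM in ASP+ACE, 0.765 FPKM in ACE+ACE and 1.05 FPKM in Control. Next came the antisense gene Gm20471, at a locus that also covers Prrx1, at 0.40, and Lmx1b, a homeobox gene of dorsal limb, at 0.44. Lmx1b, at a locus over 2 annotated genes, had 0.852 FPKM in IBU+ACE. In the others it had 0.0290 to 0.0611 FPKM, below the 0.1 FPKM added in the profiles. Gm37024, at a locus that covers Mecom, followed at 0.45 and Susd5 at 0.45. The median distance over the 89 was 1.15, so Col11a1 and Col2a1 lay farther from the mean profile than the median transcript did. Nearness to the mean profile is thus not nearness to each member. All 5 were highest in IBU+ACE, which follows from how they were picked, since the mean member profile itself peaks there. With 1 FPKM added in place of 0.1, Dkk2 alone of the 5 was still among the nearest 5. The profiles rest on 4 libraries and share them.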

How the data were processed

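RNA was sequenced from 4 E13.5 mouse testis libraries, 1 in each group, as stranded libraries depleted of ribosomal RNA, per the labels' protocols. Cufflinks 2.2.1, TopHat2 2.1, Bowtie2 2.2.6, SAMtools 1.3 and bcl2fastq 2.17 are named in the submitters' processing notes, with GRCm38 as the genome. Each pair of libraries has 1 of the 6 tables deposited by the authors. Their values are taken as FPKM from the Cufflinks layout, since the file headers name no unit. The library named EtOH was matched to Control, the 1 title left over.

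Tables were parsed in pandas 2.3.3 (Python 3.11.15, numpy 2.4.6), and figures drawn in matplotlib 3.10.9; reading and counting were tested on simulated data. Fold changes were computed from the FPKM values, without a pseudocount. Of 32 possible member values 26 were given, and 0 values disagreed between tables. Locus starts were raised by 1 to count from 1. The members and gene lists were chosen with earlier results of these data known. The text names all members, each listed gene of the matrix and regulator lists, examples from the other lists, and the 5 nearest profiles. No test was run, since each group was 1 library.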

Additional observations from a re-analysis of the deposited data

Results flagged for a closer look

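Col2a1 stood out because the authors' deposited tables list it against Control in opposite directions: 36.3 FPKM in IBU+ACE and 1.10 FPKM in ASP+ACE, against 2.92 FPKM in Control. The difference between the exposed libraries was a log2 fold change of 5.04, which the table of IBU+ACE over ASP+ACE also lists. Each group was 1 library, so the difference was not tested over replicates, and both contrasts share the Control library.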

How the results depend on the processing

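No paired analysis was possible because each group held 1 library, and for the same reason no replicate could be left out. The 38 log2 fold changes recomputed with 0.1 or 1 FPKM added bear on size alone. Adding the same amount to both values cannot reverse a direction. The median log2 fold change of listed members with 0.1 FPKM added was 1.998 for IBU+ACE over Control, 2.48 over ASP+ACE and 2.13 over ACE+ACE, and -1.33 for ASP+ACE over Control. With 1 FPKM added these medians were 0.87, 1.53, 1.37 and -0.90. Keeping transcripts whose higher value was at least 1 FPKM gave 2.04, 2.87 and 2.48 for the IBU+ACE tables and left 3 genes listed over ACE+ACE. For each member that higher value was the one in IBU+ACE, so this filter cannot check the IBU+ACE difference. Leaving out Acan, whose locus spans 2 annotated genes, gave 2.04 over Control. A cut at a log2 change of 1 or more in size after adding 1 FPKM was an alternative chosen after seeing the data. For IBU+ACE it left 2 genes over Control (median 2.39), 3 over ASP+ACE (median 2.04) and 2 over ACE+ACE (median 1.80). It left 0 for ASP+ACE over Control. Of all transcripts listed for IBU+ACE over Control, 24.9% passed it as higher. That share was not computed for the other tables, so nothing is read from their counts. The medians cover only transcripts that passed the cut. With 1 FPKM added in the profiles, 1 of the 5 nearest transcripts, Dkk2, was shared. The depth behind low values such as those of Matn3 is unknown, which limits what their ratios show.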
